A study of Mus musculus with 6 samples.

Results

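The genes described here are the protein-coding genes whose bodies span more than 300 kb of the mouse genome in the GENCODE M21 annotation (build GRCm38.p6) and whose mean raw count over the 6 libraries was at least 50. Of 54446 genes in the deposited table, 21918 were protein-coding and 566 of those were over 300 kb. The count minimum kept 244 of the 566. The other 322 fell under it, and 102 of them had no counts in any library. All 244 were among the 14956 genes tested. The genes were thus chosen by annotated span and by the mean raw count over all 6 libraries. The limits themselves use no contrast between groups, but they were set with earlier results of these data known. Of the 244 genes, 227 had a mean of at least 50 in every group, whereas 1 was under that mean in oxaliplatin and 16 in cisplatin. The spans ran from 300.5 to 4434.9 kb (median 412) and the mean raw counts from 51.8 to 8834 (median 435). Just inside the span limit stood Pam (300.5 kb) and Dync1i1 (302.4 kb), and just outside it Akap13 (299.1 kb). Just inside the count limit were Dock4 (51.8) and Auts2 (52.2), and just outside it Erc2 and Sgcd (49.3 each).

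The cells were TRAMP-C2, an established line derived from a prostate tumour of a male TRAMP mouse on the C57BL/6 background, a strain in which a prostate promoter drives the SV40 early region. The study compared the transcriptomes that the platinum drugs oxaliplatin (Oxali) and cisplatin (Cispl) left in these cells. The 3 groups were untreated control, Oxali at 2 µM for 24 h and Cispl at 2 µM for 24 h, with 2 poly(A) RNA-seq libraries each, so both drugs were matched in dose and time. The labels do not say whether the paired libraries came from separate cultures, and p-values then measure only the spread between these samples.

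An RNA polymerase II that starts at the promoter of a very long gene must cross the whole body before a messenger RNA is finished, which takes it hours rather than minutes. Platinum drugs form adducts mainly on neighbouring guanines of a DNA strand, and such adducts can stall the polymerase. Genes of this length often encode adhesion and guidance receptors, cytoskeletal linkers, channels and transcription factors, and many are best known from neurons and muscle. Cisplatin carries ammine ligands and chloride leaving groups, whereas oxaliplatin carries a diaminocyclohexane carrier ligand and an oxalate leaving group.

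Library totals lay between 21345312 and 24041767 expected counts, the size factors between 0.964 and 1.08, and the share of mitochondrial transcripts between 1.87% and 2.11%. Of 14 prostate and epithelial markers, 7 had a mean of at least 10 counts, and the basal keratin Krt5 and the probasin gene Pbsn were among those at 0 in all libraries. All 10 mesenchymal markers were detected, with summed normalised counts of 451703 to 465944 in control, 403569 to 412229 in Oxali and 378830 to 390292 in Cispl. The 14 epithelial markers summed to 4234 to 4380, 4097 to 4121 and 4460 to 4572 in the same order. Of 10 immune and endothelial markers 2 were at 0 and the sums were 55.2 to 72.6, 83.9 to 95.0 and 106 to 125. The sums of 8 neural markers were 1484 to 1502, 1335 to 1355 and 1571 to 1656. The part of these shifts in the results below was not tested. In bulk RNA, fewer cells expressing a gene cannot be told apart from less RNA per cell.

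After cisplatin the long genes were mostly lower, and after oxaliplatin they were not. The differences were tested with DESeq2 over all 14956 genes, and a gene was called at a Benjamini-Hochberg adjusted p under 0.05. In Cispl against control, 136 of the 244 genes fell (55.7%, beside 12.4% of all genes tested) and 8 rose (3.28%, beside 15.7%). In Oxali against control, 23 fell (9.43%, beside 9.5% of all genes tested) and 26 rose (10.7%, beside 10.7%). Shares after oxaliplatin were thus near those of all genes tested. Among 10958 protein-coding genes of at least 50 counts, 12.5% fell and 14.2% rose after oxaliplatin, and 15.9% and 20.5% after cisplatin. Beside that set, the oxaliplatin shares of the 244 genes were lower in both directions. Their oxaliplatin counts were 45 and 41 in edgeR's quasi-likelihood test and 14 and 14 with a replicate block, given here without the share over all genes in those fits. The median log2 fold change of the 244 genes was -0.37 after cisplatin, with quartiles of -0.72 and -0.17, and -0.02 after oxaliplatin, while the median over all tested genes was -0.00 in both. Among the 227 genes at or over the count minimum in every group, 126 (55.5%) fell and 8 rose after cisplatin. The count of fallers after cisplatin was 79 without control 2, 83 without cisplatin 1 and 88 without cisplatin 2, and that of risers 3 without control 1, 5 without control 2 and 2 without cisplatin 2. For oxaliplatin, 10 genes fell without control 2, 11 without oxaliplatin 1 and 10 without oxaliplatin 2, and 9 rose without control 1, 7 without oxaliplatin 1, 10 without oxaliplatin 2 and 17 without either cisplatin library.

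The shift was visible in each library as well as in the tests. The 244 genes held 1.04% and 1.09% of the counts in the control libraries, 1.08% and 1.06% in the Oxali libraries, and 0.842% and 0.867% in the Cispl libraries. Both Cispl libraries thus lay below the other 4. Cispl and control libraries did not overlap, with Cispl below, for 190 genes (77.9%, beside 34.7% of all genes tested), and with Cispl above for 28 (11.5%, beside 34.6%). For Oxali the corresponding counts were 94 below (38.5%, beside 32.6%) and 74 above (30.3%, beside 32.1%). Most falls were partial. Of the 136 genes that fell after cisplatin, 24 had a log2 fold change of -1 or lower, that is, a loss of at least 50% of the normalised count.

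The fall after cisplatin grew with span across protein-coding genes of at least 50 counts. The median log2 fold change was 0.04 for 2492 genes under 10 kb, 0.03 for 3679 genes of 10 to 30 kb, -0.00 for 3318 genes of 30 to 100 kb and -0.11 for 1225 genes of 100 to 300 kb. Beyond 300 kb it was -0.35 for 167 genes of up to 500 kb, -0.37 for 54 genes of up to 800 kb and -0.51 for 23 longer genes. The share called lower was 10.1%, 11.7%, 17.1% and 29.1% in the 4 shorter classes, and 56.3%, 53.7% and 56.5% in the 3 longer ones. The share thus levelled off within the long genes, where span and log2 fold change had a Spearman coefficient of -0.11 (244 genes of the same libraries). Median raw counts of the 3 longer classes were 485, 571 and 178, so span and count were not separated in this comparison. After oxaliplatin the class medians stayed between -0.12 and 0.04.

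**Figure D1:**
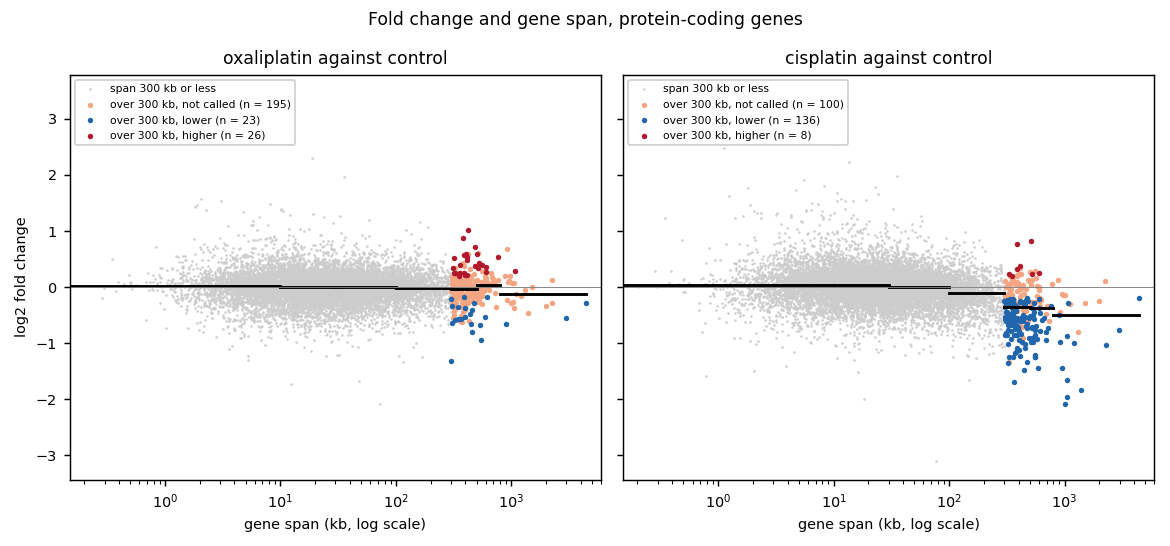
Log2 fold change (vertical axis) against gene span in kb (horizontal axis, log scale) for protein-coding genes of at least 50 counts, in oxaliplatin against control and cisplatin against control. Grey points are genes of 300 kb or less, coloured points the 244 longer genes by their call, and black bars the medians of the span classes, which drop to -0.51 over 800 kb after cisplatin and stay between -0.12 and 0.04 after oxaliplatin.

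Promoter sequence from RefSeq (GRCm38.p6) was at hand for 183 of the 244 genes, as windows from 250 bases before to 50 bases after the annotated start. The median GC content of these windows was 62.7%, beside 52.7% over 27018 genes, and the median number of CpG dinucleotides was 21 beside 7. Unlike the 183, those 27018 were not limited to expressed or protein-coding genes, so length was not separated from expression in these comparisons. The GC box GGGCGG, the letters bound by Sp1-family factors, was present on either strand in 56.8% of the 183 windows beside 35.9% of all windows. TATAAA, the core of a TATA box, was present in 7.1% beside 14.2%, and TGACTCA, the AP-1 motif, in 2.19% beside 5.17%. Windows of the 100 genes that fell after cisplatin held a GC box in 58% and a median of 23 CpG, those of the 78 genes not called in 53.8% and 19, and those of the 5 that rose in 80% and 34. The 6 sequences below are the 150 bases before the start, written 5′ to 3′ on the gene's own strand with GC boxes of either strand in capitals, and are shown because their genes stand for the different responses. Pard3b (chr1:61638674-61638823, plus strand), Gtdc1 (chr2:44927718-44927867, minus strand, from a RefSeq start 60 bases before the GENCODE one) and Sorcs1 (chr19:50678647-50678796, minus strand) belong to genes that fell after cisplatin. Slc7a11 (chr3:50443614-50443763, minus strand) belongs to a gene that fell after oxaliplatin and was not called after cisplatin, and Sh3kbp1 (chrX:159627122-159627271, plus strand) and Pola1 (chrX:93632156-93632305, minus strand) to genes that rose with both drugs.
Pard3b: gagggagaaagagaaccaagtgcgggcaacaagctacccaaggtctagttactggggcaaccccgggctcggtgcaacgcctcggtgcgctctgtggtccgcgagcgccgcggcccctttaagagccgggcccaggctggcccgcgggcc
Gtdc1: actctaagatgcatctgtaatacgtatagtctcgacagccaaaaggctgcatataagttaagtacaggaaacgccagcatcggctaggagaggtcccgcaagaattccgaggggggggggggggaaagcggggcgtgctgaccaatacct
Sorcs1: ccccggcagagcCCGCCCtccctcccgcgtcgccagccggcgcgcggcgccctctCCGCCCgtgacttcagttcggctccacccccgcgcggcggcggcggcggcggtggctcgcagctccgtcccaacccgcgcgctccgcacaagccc
Slc7a11: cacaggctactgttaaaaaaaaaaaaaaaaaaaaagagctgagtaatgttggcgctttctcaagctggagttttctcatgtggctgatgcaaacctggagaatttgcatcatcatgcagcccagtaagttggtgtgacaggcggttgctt
Sh3kbp1: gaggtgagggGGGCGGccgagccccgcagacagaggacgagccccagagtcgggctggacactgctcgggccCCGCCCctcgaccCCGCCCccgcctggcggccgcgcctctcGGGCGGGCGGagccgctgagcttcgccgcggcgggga
Pola1: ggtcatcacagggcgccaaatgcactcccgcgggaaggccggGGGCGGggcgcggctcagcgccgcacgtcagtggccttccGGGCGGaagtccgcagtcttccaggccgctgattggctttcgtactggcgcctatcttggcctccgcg
Among the fallers, the Pard3b and Gtdc1 stretches held no GC box and 14 and 8 CpG, and that of Sorcs1 held 2 GC boxes and 27 CpG. The Slc7a11 stretch held no GC box and 2 CpG. That of Sh3kbp1 held 5 matches and 21 CpG, and that of Pola1 2 matches and 18 CpG. The GC content was 81.3% for Sorcs1, 80.7% for Sh3kbp1, 70% for Pola1, 68.7% for Pard3b, 53.3% for Gtdc1 and 42.0% for Slc7a11. A match is a run of letters and not a measured binding site.

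Pard3b had the lowest log2 fold change after cisplatin, followed by Cdh13. Both are among the 16 genes whose mean raw count was under 50 in Cispl, so they met the count minimum through the other groups. Pard3b encodes a cell polarity protein related to Par3 and spans 1003.5 kb of chromosome 1. Its normalised counts, which are expected counts divided by the library's size factor, were 79.9 and 73.9 in control, 64.1 and 61.4 in Oxali, and 19.6 and 16.4 in Cispl. The Cispl libraries were far below the other 4, with a log2 fold change against control of -2.09 ± 0.41 (SE, DESeq2 adjusted p = 4.5e-06), a fall of 76.6%. Cdh13, the cadherin that is held to the membrane by a lipid anchor (1041.2 kb), counted 110.0 and 104 in control, 94.7 and 83.9 in Oxali, and 26.5 and 28.7 in Cispl. Its log2 fold change was -1.96 ± 0.34 after cisplatin (DESeq2 adjusted p = 1.78e-07) and -0.26 after oxaliplatin, which did not pass. Gpc6, a glypican that carries heparan sulphate at the cell surface (1051.2 kb), counted 356 and 371 in control, 314 and 246 in Oxali, and 129 and 100.3 in Cispl, which gave -1.66 ± 0.21 on the log2 scale (DESeq2 adjusted p = 1.27e-13). In these genes the groups did not overlap, and Oxali lay between control and Cispl.

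At higher counts the same order was measured with less error. Slit3, a secreted guidance ligand of Robo receptors, counted 1554 and 1566 in control, 1095 and 1064 in Oxali, and 560 and 592 in Cispl. It fell with both drugs, by 63.1% after cisplatin (log2 fold change -1.44 ± 0.09, DESeq2 adjusted p = 2.21e-55) and by 30.8% after oxaliplatin (-0.53 ± 0.08, adjusted p = 8.99e-09). Plxna4, a plexin that serves as a semaphorin coreceptor, counted 1117 and 1220.3 in control, 758 and 727 in Oxali, and 410 and 432 in Cispl, with log2 fold changes of -1.47 after cisplatin and -0.65 after oxaliplatin. Both genes fell further after cisplatin than after oxaliplatin, with a log2 difference between the drugs of 0.91 for Slit3 and 0.82 for Plxna4. Exoc4, a subunit of the exocyst that tethers secretory vesicles, counted 1875 and 1856 in control, 1686 and 1783 in Oxali, and 1136 and 1115 in Cispl. It fell after cisplatin (-0.73 ± 0.07, DESeq2 adjusted p = 1.43e-20) and was at -0.11 after oxaliplatin, a change that was not called. The calls of Slit3, Plxna4 and Exoc4 after cisplatin held when any library was left out.

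3 of the genes with the deepest falls are uncertain as single genes or calls. Gtdc1, a glycosyltransferase-like gene whose exonic bases overlap other genes over 8.4%, counted 138 and 132 in control, 94.7 and 82.9 in Oxali, and 31.4 and 51.9 in Cispl (log2 fold change -1.70, DESeq2 adjusted p = 3.78e-06). Like Pard3b and Cdh13, Gtdc1 had a mean raw count under 50 in Cispl and met the count minimum through the other groups. The predicted gene Gm37240 was at -1.84 and shares 60.2% of its exonic bases with other genes. Sox5, an SRY-box transcription factor that shares 9.3%, was at -1.45, and without the cisplatin 2 library its adjusted p was 0.0893. Reads from shared exons could have been split between overlapping genes by the counting.

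**Figure D2:**
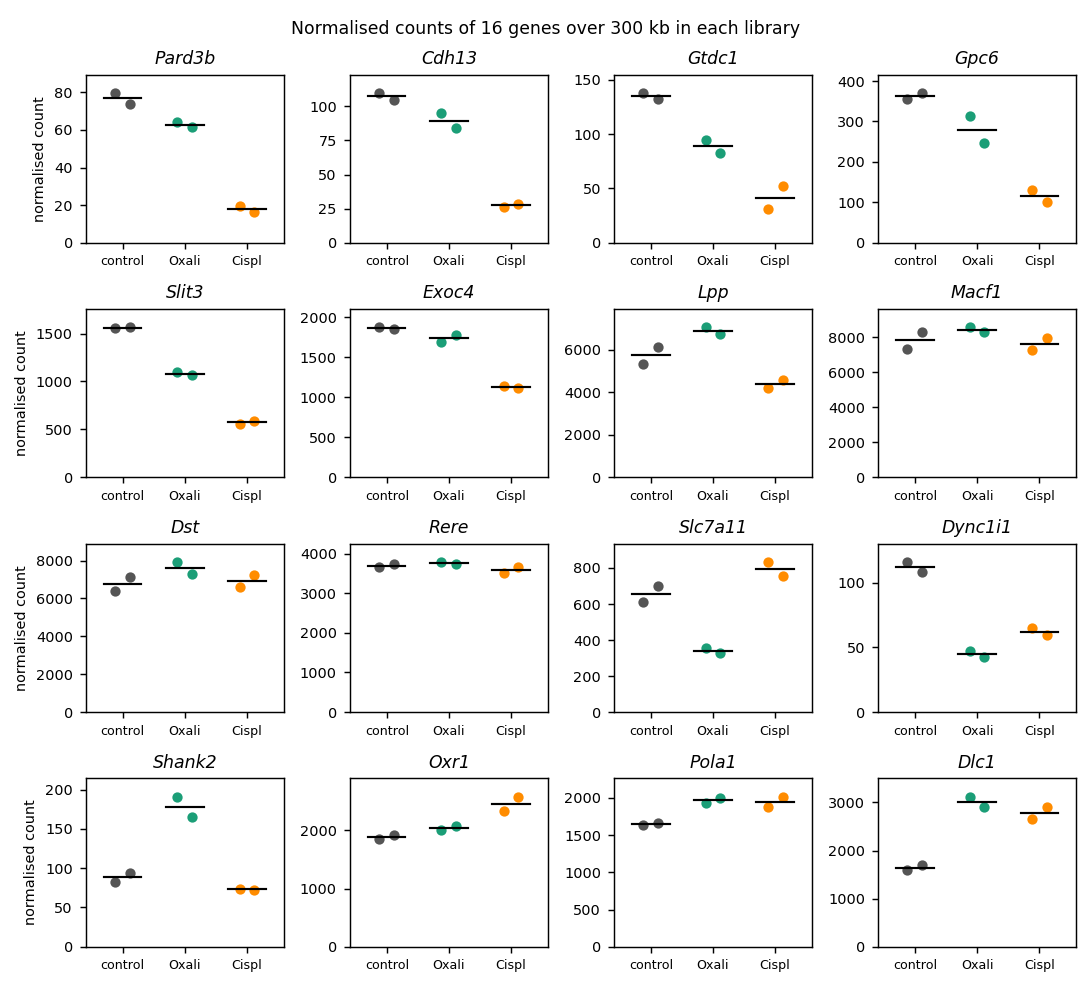
Normalised counts (vertical axes, starting at 0) of 16 genes over 300 kb in each of the 6 libraries, with points for libraries and bars for group means. The top row falls furthest after cisplatin, Macf1, Dst and Rere hold their level, Slc7a11 and Dync1i1 are lowest in Oxali, Shank2 is highest in Oxali, and Dlc1 is above control with both drugs.

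By role, falls after cisplatin were called in every functional list. Among 20 adhesion and guidance receptors and their ligands, 13 fell and 1 rose after cisplatin, with a median log2 fold change of -0.77, whereas 4 fell and 2 rose after oxaliplatin. Beside Cdh13, Slit3 and Plxna4, the receptor phosphatases Ptprd (-1.03) and Ptprg (-0.81) fell, as did the teneurin Tenm3 (-0.78). The secreted guidance cue Sema3a fell by 0.20 on the log2 scale, a call lost without control 2 or cisplatin 2 (adjusted p up to 0.131) or with the trend of transcript length and GC removed (0.0992). The adhesion phosphatase Ptprk instead rose by 0.24 after cisplatin, a call lost without control 1 or cisplatin 2 (adjusted p up to 0.148). Slit2, a close relative of Slit3, was at 0.00 and the protocadherin Pcdh7 at -0.04, and neither was called. Of 14 genes on the list of matrix and glycan genes, 13 fell and none rose after cisplatin (median -0.59), among them Gpc6, the laminin chain Lama2 (-0.58), the metalloprotease-disintegrin Adam12 (-0.65) and the mucin-type glycosyltransferase Galnt18 (-0.32). Vwa8, which is also on that list and fell, is better known as a mitochondrial protein. Ltbp1, which binds latent TGF-beta in the matrix and had the highest count of the list, was at 0.08 after cisplatin and not called. After oxaliplatin, 3 of these 14 genes fell and 1, Ltbp1 (0.26), rose, with a median of -0.25. This was the lowest oxaliplatin median of the functional lists, the others lying between -0.10 and 0.18.

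The list of genes for channels, transporters and vesicle traffic leaves out the cystine transporter Slc7a11, which was at 0.28 after cisplatin and not called. Of the 20 genes on it, 14 fell and none rose after cisplatin, with a median of -0.53. They included the trafficking subunit Trappc9 (-1.33), the lipid-transport protein Vps13b (-0.77), Exoc4, and the neurobeachin relative Lrba (-1.25, with 5.7% of its exonic bases shared). Another exocyst gene, Exoc6b, fell by 0.30 on the log2 scale, a call lost without control 2 or cisplatin 2 (adjusted p up to 0.0741). Of 12 genes of metabolism and mitochondria, 7 fell and 1 rose (median -0.51), with falls in the methionine sulphoxide reductase Msra (-1.26) and the propionyl-CoA carboxylase subunit Pcca (-1.24). The oxidoreductase Wwox, whose human counterpart lies at a common fragile site, was at -0.97, and its adjusted p was 0.0568 without the cisplatin 2 library. Adenosine kinase Adk, which had the highest count among them, was at 0.08 and not called. Of 7 RNA-binding proteins, 6 fell and none rose (median -0.43), among them the musashi protein Msi2 (-0.43), the demethylase Fto (-0.22) and the nuclease-domain protein Snd1 (-0.23).

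Of 42 transcription factors and chromatin genes, 18 fell and none rose after cisplatin, with a median of -0.29, including the homeobox gene Cux1 (-0.51), the forkhead gene Foxp2 (-0.57) and the chromatin remodeller subunit Arid1b (-0.37). Of 30 cytoskeletal and polarity genes, 13 fell and 1 rose (median -0.34), with falls in talin Tln2 (-0.79), the FERM-domain gene Frmd4b (-0.56) and the actin-bundling protein Palld (-0.35). Of 20 regulators of small GTPases, 11 fell and 2 rose (median -0.29), among them the engulfment adaptor Elmo1 (-0.73) and its partner Dock1 (-0.51). Of 27 kinases, phosphatases and second-messenger genes, 11 fell and 1 rose (median -0.28), with Plce1 at -0.56 and Fgfr2 at -0.76. Protein kinase C alpha, Prkca, was at -0.27, a call lost without control 2 or cisplatin 1 (adjusted p up to 0.114) or with the trend of transcript length and GC removed (0.123). Of 7 genes of ubiquitin and protein turnover, 5 fell and none rose (median -0.31). Among 6 genes of DNA repair, replication and chromosome segregation, the cohesin subunit Stag1 (-0.61) and the BRCA1-A complex member Babam2 (-0.86) fell and Pola1 rose. Of 39 genes on no list, 23 fell and 1 rose (median -0.53). The lists were compared by these counts and medians alone, and no test of one list against another was made.

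**Figure D3:**
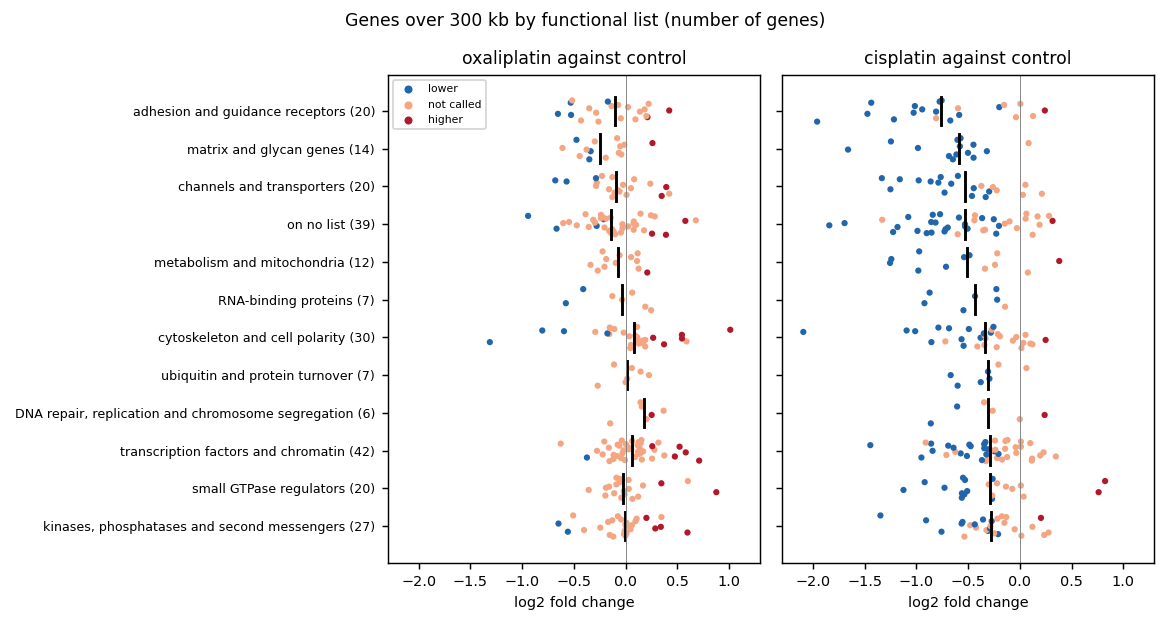
Log2 fold change (horizontal axis) of the 244 genes by functional list, in oxaliplatin against control and cisplatin against control, with 1 point per gene coloured by its call and a black bar at the list's median. After cisplatin the medians run from -0.77 for adhesion and guidance receptors to -0.28 for kinases, phosphatases and second messengers.

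Some long genes did not fall by as much as 20% after cisplatin. Of the 100 genes not called in Cispl against control, 38 had a 95% interval that lay wholly above a fall of 20% (log2 -0.32), whereas the interval of the other 62 reached it. The median standard error was 0.0947 in the first and 0.197 in the second, so many of the 62 were not resolved at this depth rather than shown to be spared. The limit bounds a fall and not a rise, and the 38 include Slc7a11 (0.28) and Nfib, whose interval lay from -0.26 to -0.02. Macf1, the spectraplakin that links actin to microtubules and the gene with the highest count among those not called, counted 7356 and 8296 in control, 8584 and 8315 in Oxali, and 7296 and 7987 in Cispl. Its log2 fold change after cisplatin was -0.03 with a 95% interval from -0.16 to 0.09. Dst, another spectraplakin, was at 0.03 (interval -0.10 to 0.17). Rere, a nuclear receptor corepressor of the atrophin family, counted 3654 and 3735 in control, 3792 and 3727 in Oxali, and 3516 and 3665 in Cispl, a log2 fold change of -0.04 (interval -0.14 to 0.06). Libraries of the control and Cispl groups overlapped in all 3. Also wholly above a 20% fall were the nuclear factor Nfib, the formin genes Diaph3 and Fmn1, the protocadherin Pcdh7, the GATA cofactor Zfpm2, Ltbp1 and Adk. After oxaliplatin the interval of 133 genes lay wholly above that fall and that of 7 wholly below it, against 49 and 69 after cisplatin.

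The 8 long genes that rose after cisplatin were Rasgef1b, Dlc1, Oxr1, Mcc, Frmd4a, Ptprk, Pola1 and Sh3kbp1. Dlc1, an activator of GTP hydrolysis by small GTPases, counted 1592 and 1693 in control, 3123 and 2908 in Oxali, and 2663 and 2904 in Cispl. It rose 1.69-fold after cisplatin (log2 fold change 0.76 ± 0.07, DESeq2 adjusted p = 1.73e-22) and 1.84-fold after oxaliplatin (0.88, adjusted p = 7.52e-30). Oxr1, an oxidation resistance gene, counted 1857 and 1927 in control, 2006 and 2082 in Oxali, and 2343 and 2584 in Cispl, a log2 fold change of 0.38 ± 0.07 after cisplatin (DESeq2 adjusted p = 2.6e-06). The calls of Dlc1 and Oxr1 after cisplatin held when any library was left out. Rasgef1b, a Ras exchange factor gene, counted 78.9 and 70.9 in control, 122 and 105 in Oxali, and 144 and 121 in Cispl, a log2 fold change of 0.82 whose adjusted p of 0.0117 became 0.0566 to 0.267 whichever of the 6 libraries was left out. The rises of the other 5 were between 0.20 and 0.32, and each was lost in at least 1 such fit. For Mcc (0.32) this was without cisplatin 2 (adjusted p 0.081), and for Pola1 (0.24) without control 1, control 2 or cisplatin 2 (up to 0.219). Frmd4a (0.25) lost its call without control 1, control 2, oxaliplatin 1 or cisplatin 2 (up to 0.294), Sh3kbp1 (0.20) without control 1, cisplatin 1 or cisplatin 2 (up to 0.17), and Ptprk without control 1 or cisplatin 2.

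The span of a gene and that of its main transcript can differ, and the response varied with the latter. The principal transcript, taken from the annotation's principal-isoform tag, was over 300 kb in 201 of the 244 genes, of which 121 (60.2%) fell after cisplatin with a median of -0.46. Of 28 genes with a principal transcript of 100 to 300 kb, 12 (42.9%) fell with a median of -0.28. Of 15 genes whose principal transcript was under 100 kb, 3 fell, 3 rose and the median was -0.04. The 3 risers were Oxr1 (principal transcript 28.4 kb), Rasgef1b (35.5 kb) and Dlc1 (46.2 kb), so the risers include short principal transcripts within long annotated bodies. The 3 fallers were the thyroid hormone receptor Thrb (-0.86), the galactosyltransferase B3galt1 (-0.85) and Btbd3 (-0.60). The call of Thrb was lost without control 1, control 2 or cisplatin 2 (adjusted p up to 0.263) and that of B3galt1 in all 3 fits that gave it an adjusted p, without control 1, oxaliplatin 1 or oxaliplatin 2 (up to 0.145). Having any coding transcript under 100 kb went with little difference in the share of fallers, 54.9% of 133 genes that had one against 56.8% of 111 that had none. The medians differed more, at -0.32 for the 133 genes and -0.48 for the 111. Over the 244 genes, the Spearman coefficient of the log2 fold change after cisplatin was -0.26 with the principal transcript's span, 0.13 with exonic length, -0.08 with transcript GC content and 0.36 with mean count. The median after cisplatin was -0.69 for 67 genes of 50 to 200 mean counts, -0.37 for 106 genes of 200 to 1000 and -0.25 for 71 genes of 1000 and over. The shares called lower in these classes were 50.7%, 56.6% and 59.2%. These points share the same 6 libraries, and genes of low count have wider errors.

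**Figure D4:**
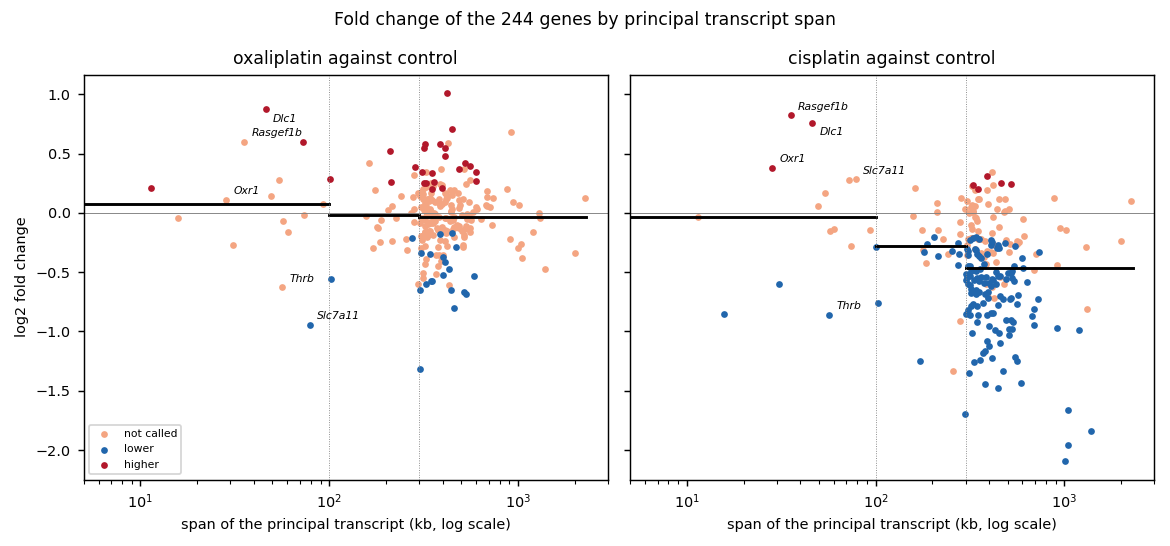
Log2 fold change (vertical axis) of the 244 genes against the span of their principal transcript in kb (horizontal axis, log scale), by call, with black bars at the medians under 100 kb, of 100 to 300 kb and over 300 kb. After cisplatin the medians step down from -0.04 to -0.28 and -0.46.

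After oxaliplatin the 49 called genes were split between falls and rises. The largest fall was that of Dync1i1, a dynein intermediate chain, which counted 116 and 108 in control, 47.3 and 43.0 in Oxali, and 64.7 and 59.3 in Cispl (log2 fold change -1.31 ± 0.32, DESeq2 adjusted p = 0.000376). Dync1i1 is the 1 gene whose mean raw count was under 50 in Oxali, so it met the count minimum through the other groups. Slc7a11, the cystine transporter that feeds glutathione synthesis, counted 612 and 697 in control, 353 and 328 in Oxali, and 834 and 758 in Cispl. It fell by 48.0% after oxaliplatin (-0.94 ± 0.13, DESeq2 adjusted p = 2.28e-11) and was at 0.28 after cisplatin (adjusted p = 0.0678). Its groups did not overlap, with Oxali lowest and Cispl highest, and it was the only called oxaliplatin faller that was not called lower after cisplatin. The other 22 fell with both drugs, among them Slit3, Plxna4, the phosphatase regulator Phactr1 (-0.81 after oxaliplatin), the phospholipase Plce1 (-0.65), Galnt18 (-0.34) and Snd1. The sortilin-related receptor Sorcs1 was at -0.68, a call lost without control 2 or oxaliplatin 1 (adjusted p up to 0.192). The lower Dync1i1 count after cisplatin (-0.86, DESeq2 adjusted p = 0.0219) lost its call in all 4 fits that left out 1 library and gave an adjusted p, without control 1, oxaliplatin 1, oxaliplatin 2 or cisplatin 2 (up to 0.261).

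Among the 26 genes that rose after oxaliplatin, Shank2, a scaffold of the postsynaptic density, had the largest change. It counted 83.0 and 93.6 in control, 191 and 165 in Oxali, and 73.5 and 72.6 in Cispl, so that Oxali alone lay above control. The log2 fold change was 1.01 ± 0.26 in Oxali (DESeq2 adjusted p = 0.000737) and -0.27 in Cispl, which was not called. Dlc1 followed, and the osteoblast transcription factor Runx2 (0.52) and the formin Diaph3 (0.37) rose too. Aff3, of the AF4 family of elongation factors, was at 0.71, a call lost without control 1, oxaliplatin 1 or oxaliplatin 2 (adjusted p up to 0.129). Of these 26 genes, 5 also rose after cisplatin, 5 fell after cisplatin and 16 were not called there. Those rising with both drugs were Dlc1, Mcc, Ptprk, Pola1 and Sh3kbp1. In Oxali against control, Pola1 lost its call without control 1, oxaliplatin 1 or oxaliplatin 2 (adjusted p up to 0.179) and Sh3kbp1 without control 1, oxaliplatin 1, oxaliplatin 2, cisplatin 1 or cisplatin 2 (up to 0.371).

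The 5 genes that moved in opposite directions were Lpp, Apbb2, Setbp1, Cacna1c and Nrg1. Lpp, a LIM protein of focal adhesions, had the highest count of them. It counted 5320.3 and 6148 in control, 7058 and 6737 in Oxali, and 4223 and 4588 in Cispl, with every Oxali library above and every Cispl library below the control libraries. On the log2 scale Lpp rose by 0.27 in Oxali (DESeq2 adjusted p = 0.00167) and changed by -0.38 in Cispl (adjusted p = 2.05e-06). The rise of Lpp was lost without control 1 or oxaliplatin 1 (adjusted p up to 0.0787) and with size factors from genes under 30 kb (0.0876), and that of Apbb2, an amyloid-precursor-binding adaptor, without oxaliplatin 1 or oxaliplatin 2 (up to 0.12). Apbb2 was also not called lower after cisplatin without control 1, cisplatin 1 or cisplatin 2 (up to 0.0911), or with the trend of transcript length and GC removed (0.19). The rises of Setbp1, the calcium channel gene Cacna1c and the ligand gene Nrg1 were lost whichever library was left out (adjusted p up to 0.372, 0.265 and 0.576). The fall of Cacna1c was lost without control 2 or cisplatin 1 (up to 0.0876) or with the trend of transcript length and GC removed (0.0836), and that of Nrg1 whichever library was left out (up to 0.322).

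Set directly against each other at the same dose and time, the drugs differed in most long genes. Oxali was higher than Cispl in 135 of the 244 genes (55.3%, beside 8.62% of all genes tested) and lower in 4 (1.64%, beside 11.3%), and the median log2 difference was 0.37. The higher count was 60 without oxaliplatin 1, 65 without oxaliplatin 2, 62 without cisplatin 1 and 69 without cisplatin 2, and the lower count was 2 without oxaliplatin 1, oxaliplatin 2 or cisplatin 2. Both Oxali libraries lay above both Cispl libraries in 206 genes (84.4%, beside 33.5%) and below them in 10 (4.1%, beside 34.5%). The contrasts of each drug with control share the control libraries, so their values are given side by side and not correlated. Of the 136 genes that fell after cisplatin, 102 were higher in Oxali than in Cispl, 33 were not called between the drugs and 1, Snd1, was lower in Oxali. The 4 genes lower in Oxali were Slc7a11 (-1.22 ± 0.13, DESeq2 adjusted p = 3.5e-19), Camk1d (-0.39), Oxr1 (-0.27) and Snd1 (-0.18). The call of the kinase gene Camk1d was lost whichever library was left out (adjusted p up to 0.41), that of Oxr1 without oxaliplatin 1 or cisplatin 2 (up to 0.195) and that of Snd1 without oxaliplatin 2 (0.0539). The largest differences the other way were those of Pard3b (1.80, DESeq2 adjusted p = 0.000163) and Cdh13 (1.70, adjusted p = 1.36e-05). For Dlc1, which rose with both, the difference was 0.12 with a 95% interval from -0.03 to 0.26, and for Dync1i1 it was -0.46 with an interval from -1.10 to 0.19, so neither interval shows that the drugs act alike.

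The longest bodies did not all respond alike. The longest, Gm20388 (4434.9 kb), is a read-through annotation that shares 100% of its exonic bases with other genes and is not read as a gene of its own. The fibroblast growth factor receptor gene Fgfr2 is annotated over 2960.9 kb, although its principal transcript spans 102.5 kb, and fell after cisplatin (-0.76). It was also lower after oxaliplatin (-0.56), a call lost without control 2 or oxaliplatin 1 (adjusted p up to 0.11). Ptprd (2270.7 kb) counted 362 and 383 in control, 309 and 303 in Oxali, and 174 and 191 in Cispl, and changed by -1.03 ± 0.16 on the log2 scale after cisplatin (DESeq2 adjusted p = 1.05e-08). Dmd, the dystrophin gene, with a principal transcript of 2257.2 kb, counted 114 and 119 in control, 129 and 126 in Oxali, and 125 and 125 in Cispl. Its log2 fold change after cisplatin was 0.10 with a 95% interval from -0.37 to 0.57, an interval that reaches past a 20% fall. Macrod2, a macrodomain gene, was at -0.24 and the phosphodiesterase gene Pde4d at -0.28, and neither was called.

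Short relatives of the long genes were set beside them as a reference of like protein function. In 70 pairs, 62 genes over 300 kb were matched with 60 relatives under 100 kb, called paralogs here. Not every pair is one of strict paralogs, for example Gphn with Mocs1. The short genes had no minimum of 50 counts, and Mast1 and Sox13 had means of 11.1 and 13.7. Counts of called genes on the 2 sides were thus taken at unlike depth. After cisplatin, 40 of the 62 long genes fell and 2 rose (median -0.35), whereas 12 of the 60 short paralogs fell and 5 rose (median -0.04). The long gene lay below its short paralog in 52 of the 70 pairs. After oxaliplatin, 3 long genes fell and 8 rose, against 11 and 6 of the short paralogs. Gpc6 (-1.66) stood beside the glypican Gpc1 at 0.18, which was not called, and Arid1b (-0.37) beside Arid1a at -0.15, not called either. Cdh13 (-1.96) stood beside E-cadherin Cdh1 at 0.53, which was called higher except without control 1 or cisplatin 2 (adjusted p up to 0.0839). The pair of Bnc2 (-0.95) and Bnc1 (-1.12), zinc finger genes, fell together, and Dlc1 (0.76) rose while its short relative Stard8 was at -0.04. Pairs share genes and libraries, and no test was made over them.

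**Figure D5:**
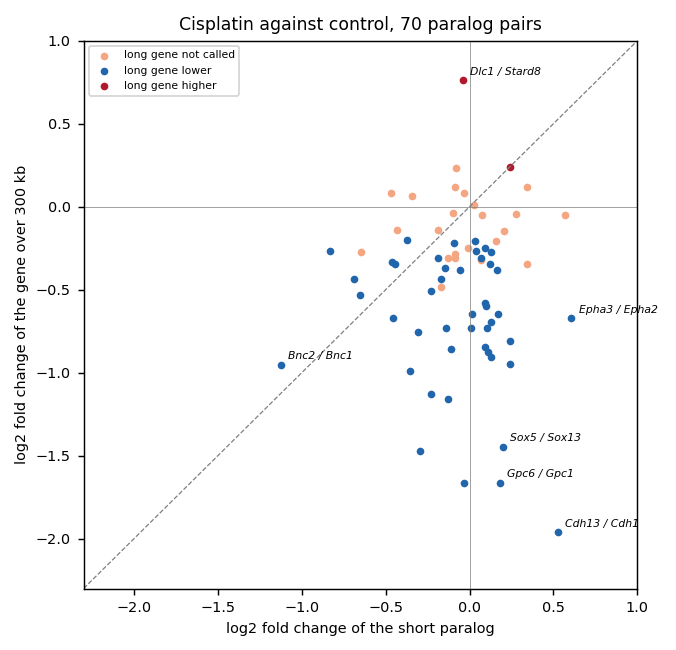
Log2 fold change in cisplatin against control of each gene over 300 kb (vertical axis) against that of its paralog under 100 kb (horizontal axis) for 70 pairs, coloured by the call of the long gene, with the dashed line at equality. Most points, 52 of 70, lie below the line, and Bnc2 with Bnc1 and Dlc1 with Stard8 are among those above it.

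Genes that act on a moving or stalled polymerase were followed on 2 lists, and none of the listed genes was over 300 kb. Aff3, of the AF4 family named above, spans 487.6 kb but was on neither list. Of 53 transcription elongation genes tested, 4 fell and 15 rose after cisplatin, beside 12.4% and 15.7% of all genes tested, and 3 fell and 7 rose after oxaliplatin, beside 9.5% and 10.7%. Their median span was 37.0 kb. Of protein-coding genes of at least 50 counts, more rose after cisplatin, 24.5% of those of 10 to 30 kb and 18.5% of those of 30 to 100 kb. The elongation factor Ell2 rose by 0.67 and its associated factor Eaf1 by 0.40 after cisplatin. Polr2a, the largest polymerase subunit, was at 0.19, a call lost without cisplatin 2 (adjusted p 0.104), and the kinase Cdk9 at 0.18, a call lost whichever library was left out (up to 0.384). Among the lower genes were Top2b (-0.25), Tcea3 (-0.81) and Aff4 (-0.14), of which Tcea3 lost its call without any library but cisplatin 1 (adjusted p up to 0.45), and Aff4 lost its call without any library but control 1 (up to 0.403). The call of Top2b was lost with the trend of transcript length and GC removed (adjusted p 0.228). Of 30 transcription-coupled repair genes, 3 fell and 6 rose after cisplatin, and 3 fell and 4 rose after oxaliplatin, shares near those of all genes tested. The TFIIH subunit Gtf2h1 rose by 0.96 and the replication protein A subunit Rpa2 by 0.74 after cisplatin. Lower after cisplatin were Uvssa (-0.45), Ercc4 (-0.49) and Usp7 (-0.16). Ercc4 lost its call whichever library was left out (up to 0.289), Uvssa without any library but control 1 (up to 0.328) and Usp7 without control 2, oxaliplatin 1, oxaliplatin 2 or cisplatin 1 (up to 0.338).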

How the data were processed

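Poly(A) RNA of 6 TRAMP-C2 libraries, 2 per group, was measured by RNA-seq. The authors deposited expected counts per gene, which are not normalised. The submitters' processing notes name STAR 2.5.3a, RSEM 1.3.0 and the build GRCm38.p6, whereas the study's methods describe another counter. The annotation and the strand setting are not given in the sources used here, so overlapping genes are treated as uncertain. Gene IDs were matched to GENCODE M21 (54409 of 54446), which gave symbols, spans and principal transcripts (the APPRIS tag).

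Expected counts were rounded, only genes reaching 10 counts in 2 or more libraries entered the test, and DESeq2 1.42.0 (R 4.3.3) was fitted to all 6 libraries with group as the only term (Wald test, Benjamini-Hochberg adjustment, adjusted p under 0.05, independent filtering at 0.1, unshrunken fold changes). Intervals are 95% Wald intervals. With 2 libraries a group, all groups share 1 dispersion estimate. At these depths a count of 0 allows up to 0.125 to 0.141 CPM (3 counts), which covers counting error only. The scripts were tested on simulated data.

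Members, functional lists, paralog pairs and pathway lists were chosen with earlier results of these data known, and the list of repair genes among the members was added last. The rule for named genes took the 8 lowest and 5 highest called genes with non-overlapping libraries for each drug, the 4 lowest and 4 highest between the drugs, the 6 longest, the 2 highest counts of each list, the 6 highest counts called in neither contrast, those nearest the limits and the paralog pairs. Other genes named as examples were chosen after their values were seen, and some genes are not reported here. Alternatives covered the test (edgeR 4.0.16), scaling, filters, a replicate block, a correction for transcript length and GC, the limits of the rule and leaving out each library.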

Additional observations from a re-analysis of the deposited data

How the results depend on the processing

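Over the alternatives run, the count of long genes lower after cisplatin stayed within 1.5 times 136 except with a minimum absolute log2 fold change of 1 (24 lower, 0 higher), other limits of the rule and single left-out libraries. With that minimum, oxaliplatin called 1 lower and 1 higher, and the drugs differed in 1 lower and 17 higher. In edgeR, oxaliplatin called 45 lower and 41 higher. With TMM scaling, no filter, or a filter at 10 counts in every library the counts stayed within 1.5 times. The correlations of same-numbered deviations were 0.069, -0.046 and -0.212. With 2 libraries a group, these values neither show nor exclude a pairing by replicate number. The replicate block called 14 lower and 14 higher after oxaliplatin, 105 and 6 after cisplatin, and 91 higher in Oxali than Cispl, and with the cisplatin numbers crossed, an alternative chosen after seeing the data, this last count was 83.

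Total-count scaling moved the cisplatin median to -0.41 and the median between the drugs to 0.40, and size factors from genes under 30 kb gave -0.41 and 0.41. With the trend of transcript length and GC removed, 16 genes were higher after cisplatin with a median of -0.28, the drugs differed with 7 lower and a median of 0.27, and the elongation gene Aff4 reversed to 0.0265 after cisplatin and was not called. Over 200 kb (513 genes) oxaliplatin called 51 lower and 60 higher, cisplatin 237 and 26 (median -0.27), and the drugs differed in 11 and 216 (median 0.25). Over 500 kb (77 genes) these were 7 and 8, 42 and 3 (median -0.44), and 1 and 46 (median 0.49). A mean count of at least 20 (268 genes) gave a cisplatin median of -0.41, and one of at least 200 (177 genes) medians of -0.32 after cisplatin and 0.33 between the drugs. With a principal transcript over 300 kb (201 genes, chosen after seeing the data) cisplatin called 5 higher with a median of -0.46, and the drugs differed in 2 lower with a median of 0.42.

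Leaving out 1 library leaves an arm with a single library that is assumed to vary like the others. Counts then ran from 79 to 111 lower and 2 to 7 higher after cisplatin, from 10 to 17 lower and 7 to 21 higher after oxaliplatin, and from 2 to 3 lower and 60 to 113 higher between the drugs, with medians of -0.41 to -0.36, -0.05 to 0.02 and 0.35 to 0.40. The calls of 73 of 144 genes after cisplatin, 15 of 49 after oxaliplatin and 51 of 139 between the drugs held in all 17 refits. Depth limits the genes of 50 to 200 counts most, and 2 libraries a group limit all. Not all losses of named genes are given in the report. The cisplatin calls of Frmd4a and Sh3kbp1 were lost with size factors from genes under 30 kb (DESeq2 adjusted p 0.0553 and 0.0697). With the replicate block, those of Frmd4a, Thrb and Dync1i1 were lost (0.0643, 0.0577 and 0.114), and with total-count scaling that of Sh3kbp1 (0.059). Those of Uvssa and Usp7 were lost with the trend of transcript length and GC removed (0.089 and 0.0799).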
